A study of Marmota monax with 203 samples.

Results

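The sensors of RNA and DNA followed here were DDX58 (RIG-I), IFIH1 (MDA5), DHX58 (LGP2), MAVS, TLR3, TLR7, MYD88, TMEM173 (STING), ZBP1 and TREX1. They were taken by gene symbol and are 10 of the 17587 genes listed in the deposited tables. Expression was measured by RNA-Seq in liver biopsies of woodchucks of both sexes that had been infected with woodchuck hepatitis virus (WHV) as newborns, so that placebo animals carried the virus as well. Animals received recombinant woodchuck interferon-α (wIFN-α) at 20 μg (low dose, weeks 0 and 3) and then at 100 μg (high dose, weeks 7, 11 and 15), or placebo, and on-treatment biopsies were taken 6 hours after a dose. Week -3 lay before treatment, and weeks 19 and 23 lay after it. At weeks -3, 0, 3, 7, 11, 15, 19 and 23 there were 11, 11, 9, 9, 8, 8, 6 and 6 wIFN-α animals and 12, 12, 12, 12, 10, 9, 5 and 9 placebo animals. Each animal gave 1 biopsy per week and most animals were sampled at several weeks, so that the weeks share animals. The 7 biopsies of wIFN-α animal M1004 and 8 samples outside this schedule, 4 of them labelled as from animals that died and without a week, were kept out of the comparisons.

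Cells detect viral nucleic acid with receptors in the cytosol and in endosomes. The RIG-I-like receptors DDX58 and IFIH1 bind double-stranded or uncapped RNA in the cytosol and signal through MAVS, an adaptor on mitochondria, while the related DHX58 lacks the signalling domain and modulates the other receptors. TLR3 and TLR7 bind double-stranded and single-stranded RNA in endosomes, and MYD88 is the adaptor of TLR7. Cytosolic DNA is detected by cGAS, whose cyclic dinucleotide product activates TMEM173, and it is degraded by the exonuclease TREX1, while ZBP1 binds nucleic acid in the Z conformation and can trigger cell death through RIPK3. Several of these sensors are themselves interferon-stimulated genes (ISGs).

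The 149 biopsies compared held 12072840 to 84805845 reads on genes, with a median of 28754894. Some biopsies stood apart. Skeletal muscle genes (a list of 20) took 6.36% to 13.5% of the reads in 4 biopsies, against at most 4.36% in the others. Of these 4, F1016 (placebo) and F1018 (wIFN-α) at week -3 had summed levels of 7 hepatocyte genes of 357 and 192 CPM (read counts scaled to library size), against a median of 134600 CPM in the other biopsies of that week, so that these biopsies nearly lacked the labelled tissue. The others were F1021 (placebo, week 3) and F1023 (wIFN-α, week 0). Animal F1013 at week 3 carries the wIFN-α label, but levels of the induced sensors in it lay at or near the placebo range. The 2 sequencing runs of placebo animal M1008 at week 15 differed by a chi-square per degree of freedom of 136.91, as much as biopsies of different animals (median 132.7), where runs of 1 biopsy had a median of 1.82. Results that these biopsies changed are given with and without them.

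The RIG-I-like receptors were compared between wIFN-α and time-matched placebo animals to ask how the treatment changed the liver's own sensing of viral RNA. All 3 receptors were higher with wIFN-α at each of the 5 on-treatment weeks. At week 0, the level of DDX58 ranged from 264 to 1061 CPM in the 11 wIFN-α animals (median 428) and from 36.4 to 59.1 CPM in the 12 placebo animals (median 50.5). All 11 treated animals lay above all placebo animals. DDX58 was 10.1-fold higher (log2 fold change 3.34 ± 0.19 SE, adjusted p = 1.18e-12, edgeR quasi-likelihood test with Benjamini-Hochberg adjustment), and at weeks 3, 7, 11 and 15 its log2 fold change was 3.17, 3.23, 3.20 and 3.16. In this bulk tissue, more cells of a type and more RNA per cell cannot be told apart.

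IFIH1, the receptor for long double-stranded RNA, changed more than DDX58 from a lower base. At week 0 it ranged from 172 to 375 CPM with wIFN-α (median 258) and from 10.1 to 17.6 CPM with placebo (median 14.0). At week 15 the values were 183 to 360 CPM (median 291, n = 8) and 10.5 to 22.9 CPM (median 16.5, n = 9). The groups did not overlap at either week. By edgeR, the log2 fold change was 4.28 ± 0.15 (SE) at week 0 and 4.08 ± 0.16 (SE) at week 15 (adjusted p = 2.68e-16 and 9.32e-13), a 19.4-fold and a 16.95-fold difference.

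DHX58 had the smallest fold change of the 3 receptors. It ranged at week 0 from 343 to 949 CPM with wIFN-α (median 535) and from 52.9 to 320 CPM with placebo (median 174), so that the groups lay next to each other without overlap. Its log2 fold change was 1.82 ± 0.24 (SE) at week 0 and 1.48 ± 0.16 (SE) at week 15 by edgeR, with adjusted p = 2.13e-06 and 9.61e-07. DHX58 also moved in placebo animals over the study. From week -3 to week 0 it increased in 10 of 12 placebo animals, and the placebo median went from 88.6 CPM at week -3 to 238 CPM at week 7 and 76.1 CPM at week 23. Between weeks -3 and 23 the placebo levels did not pass the test (log2 difference -0.03, adjusted p = 0.935, edgeR). This compares the first and last weeks only, and the higher placebo level at week 7 was not tested.

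MAVS, the adaptor of these receptors, did not pass the test at any week. At week 15 it ranged from 44.4 to 56.6 CPM with wIFN-α (median 54.5) and from 45.1 to 71.2 CPM with placebo (median 60.6), and 7 of the 8 treated animals lay within the placebo range. The log2 fold change by edgeR was -0.21 (95% interval -0.37 to -0.04, adjusted p = 0.0525). At weeks 0, 3, 7 and 11 it was -0.12, -0.05, -0.15 and -0.14, so that the point estimate was below 0 at each on-treatment week. The intervals at these 5 weeks reached no lower than -0.37, which corresponds to less than a 1.5-fold decrease.

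Of the 10 sensors, 7 were called higher and none lower at each on-treatment week (adjusted p under 0.05 and fold change above 1.5, edgeR), namely DDX58, IFIH1, DHX58, TLR3, MYD88, TMEM173 and ZBP1. Among all genes tested, 10.3% were called higher at week 0, 7.24% at week 3, 11.4% at week 7, 12.6% at week 11 and 12.9% at week 15, and 8.15%, 3.56%, 10.1%, 7.98% and 9.81% were called lower at these weeks. The median log2 fold change of the 10 genes was 1.60 at week 0 and 1.96 at week 15, against -0.01 and -0.04 over all genes tested. The number of these genes whose treated animals all lay above every placebo animal was 5 at week 0, 1 at week 3, 6 at weeks 7 and 11 and 7 at week 15, where 4.01%, 0.353%, 7.84%, 7.18% and 8.13% of all genes did so. At week 3 the biopsy of F1013 lay among the placebo values. Without it, the lowest of the other 8 treated animals had 250 CPM of DDX58, 139 CPM of IFIH1, 401 CPM of DHX58 and 71.5 CPM of ZBP1, above the highest placebo animals at 56.5, 19.2, 332 and 12.7 CPM.

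**Figure D1:**
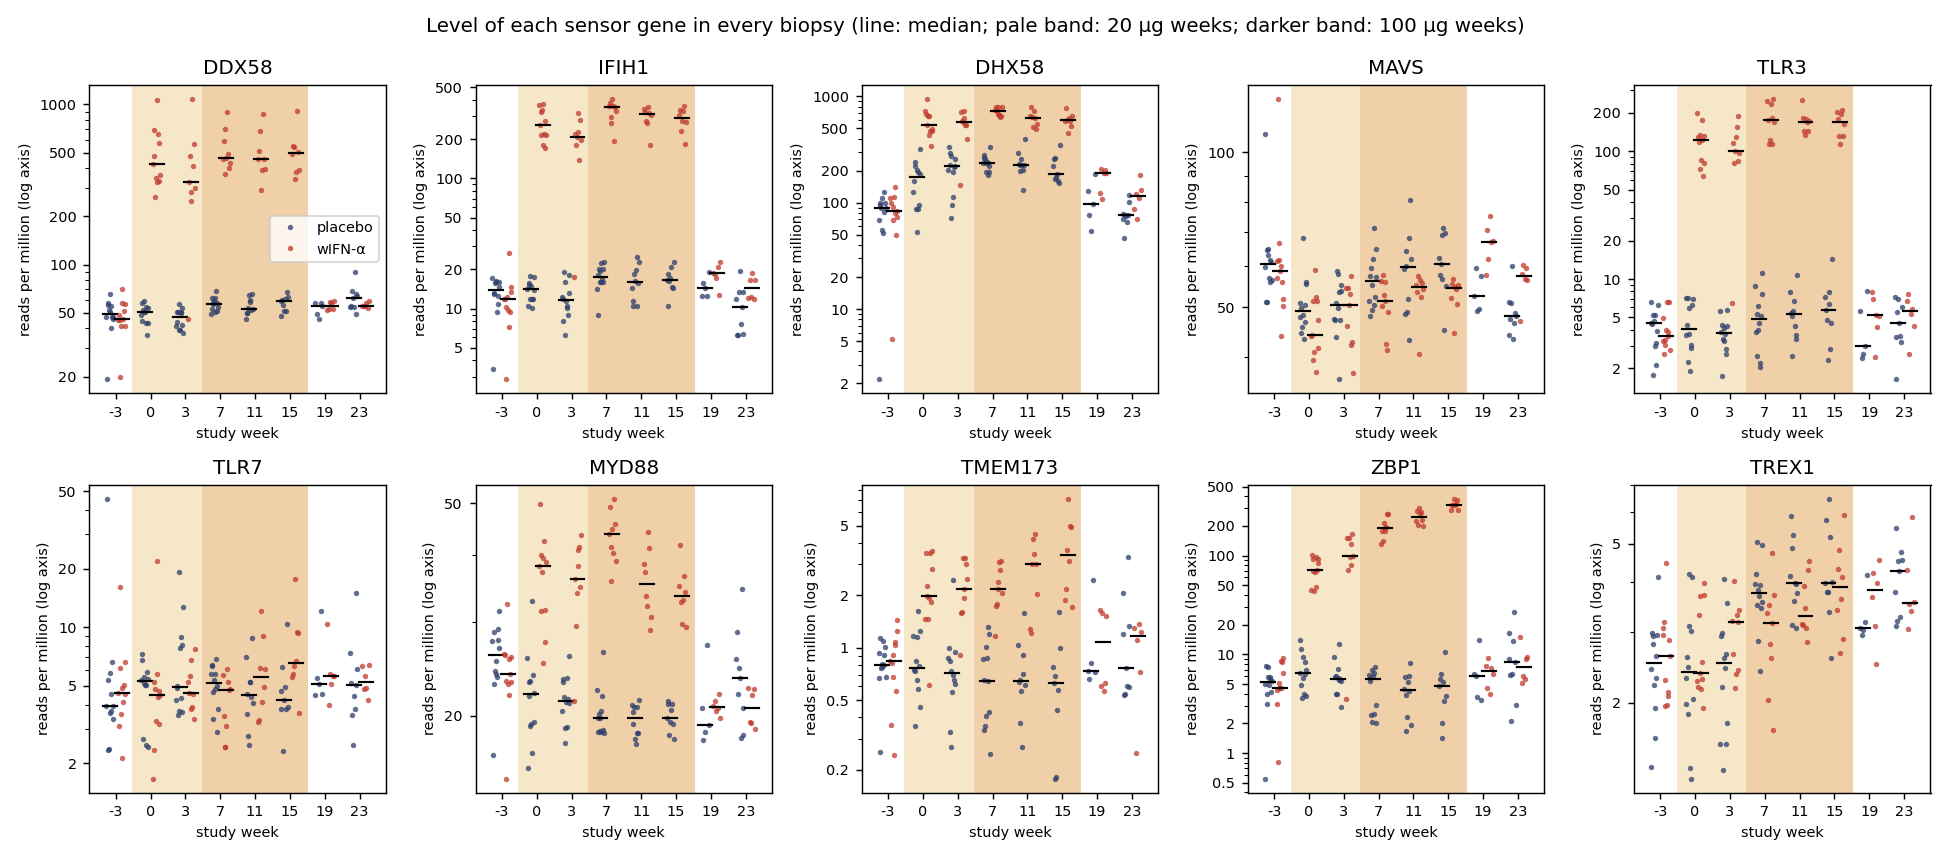
Level of each of the 10 sensors in every biopsy, in CPM (log axis), by study week for placebo (blue) and wIFN-α (red) animals, with the median of each group as a line. DDX58, IFIH1, TLR3 and ZBP1 separate fully at weeks 0, 7, 11 and 15 (ZBP1 at week 15, 289.5 to 376 against 1.41 to 10.4), the single low red point at week 3 is F1013, and the groups of MAVS, TLR7 and TREX1 overlap at every week.

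F1013 was low at week 3 and not at the neighbouring weeks. Its DDX58 level was 45.3 CPM at week -3, 428 at week 0, 45.6 at week 3 and 454 at week 7. Its ZBP1 level followed the same course, with 3.13, 45.2, 3.54 and 130 CPM at these weeks. IFIH1, DHX58, MYD88 and TMEM173 in this biopsy also lay within the placebo range of week 3, and TLR3 lay just above it, with 6.53 CPM against a highest placebo value of 5.69. With F1013 left out, the log2 fold change at week 3 was 3.32 for DDX58, 4.17 for IFIH1, 1.49 for DHX58, 4.96 for TLR3 and 4.25 for ZBP1, and the same 7 genes were called.

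TLR3, the endosomal receptor for double-stranded RNA, had the largest fold change among the receptors for RNA. At week 0 it ranged from 63.8 to 199 CPM with wIFN-α (median 122) and from 1.91 to 7.16 CPM with placebo (median 4.05). At week 15 the ranges were 114 to 212 CPM (median 171) and 2.34 to 14.3 CPM (median 5.71). Every treated animal lay above every placebo animal at all 5 on-treatment weeks, F1013 at week 3 included. By edgeR the log2 fold change was 4.69 ± 0.26 (SE) at week 0 and 4.75 ± 0.31 (SE) at week 15 (adjusted p = 5.62e-13 and 7.21e-10). Its rank by fold change was 21 of 14700 genes at week 0 and 38 of 14943 genes at week 15. The placebo value of 14.3 CPM came from M1011, which had the highest TLR3 level of the placebo group at 5 of 8 weeks.

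TLR7, the receptor for single-stranded RNA that plasmacytoid dendritic cells and B cells carry, was not called at any week. Its log2 fold change was 0.20, -0.51, -0.26, 0.36 and 0.70 at weeks 0, 3, 7, 11 and 15. At week 15 it ranged from 3.61 to 17.7 CPM with wIFN-α (median 6.54) and from 2.31 to 10.4 CPM with placebo (median 4.25), and F1020 alone lay above all placebo animals. The 95% interval at week 15 was 0.12 to 1.28 and the adjusted p by edgeR was 0.0667. This result turned on single animals, since without placebo animal M1008 the log2 fold change was 0.95 (adjusted p = 0.00997), without M1012 it was 0.81 (adjusted p = 0.0345), and leaving out F1020 gave 0.44 (adjusted p = 0.204). TLR7 passed in DESeq2 (0.71, adjusted p = 0.0435) and with the deepest run of each biopsy (0.77, adjusted p = 0.0471). The 4 biopsies with muscle reads had the highest TLR7 level of their group and week, 45.8 and 16.2 CPM at week -3, 21.9 CPM at week 0 and 19.3 CPM at week 3, and without them the sign at week 0 changed (log2 fold change -0.31). The part of muscle tissue in these levels was not tested.

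MYD88, the adaptor of TLR7 and of the receptors for interleukin-1, rose by less than DDX58, IFIH1, DHX58 and TLR3. It ranged at week 0 from 25.1 to 49.8 CPM with wIFN-α (median 38.2) and from 16.0 to 32.8 CPM with placebo (median 21.9), with 7 of 11 treated animals above all placebo animals. At week 15 all 8 treated animals lay above all placebo animals, at 29.4 to 41.7 CPM (median 33.6) against 18.1 to 21.3 CPM (median 19.9). The log2 fold change by edgeR was 0.73 ± 0.12 (SE) at week 0, 1.10 ± 0.07 (SE) at week 7 and 0.77 ± 0.07 (SE) at week 15, with adjusted p = 2.62e-05, 7.73e-12 and 5.46e-08. The largest change of MYD88, at week 7, was the only one above 2-fold.

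TMEM173, the adaptor activated by the product of cGAS, was the least abundant of the 10 sensors. It ranged at week 0 from 0.610 to 3.56 CPM with wIFN-α (median 1.96) and from 0.357 to 1.62 CPM with placebo (median 0.764), and 8 of 11 treated animals lay above all placebo animals. At week 15 all 8 did, at 1.72 to 7.13 CPM (median 3.39) against 0.178 to 1.60 CPM (median 0.626). The log2 fold change by edgeR was 1.38 ± 0.27, 1.41 ± 0.30, 1.72 ± 0.27, 1.94 ± 0.32 and 2.45 ± 0.40 (SE) at weeks 0, 3, 7, 11 and 15, with adjusted p = 0.000295 at week 0 and 0.000102 at week 15. The lowest read count behind a TMEM173 value was 4 and the highest 294, so that its values carry more counting error than those of the other sensors.

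ZBP1, the sensor of Z-form nucleic acid, had the largest log2 fold change of the 10 sensors at weeks 7, 11 and 15. At weeks 0, 3, 7, 11 and 15 its median in wIFN-α animals was 71.9, 98.5, 191, 244 and 325 CPM, while the placebo median was 6.39, 5.67, 5.57, 4.36 and 4.72 CPM. The treated animals ranged from 43.3 to 101 CPM at week 0 and from 289.5 to 376 CPM at week 15, so that the lowest value at week 15 was above the highest at week 0. The log2 fold change by edgeR was 3.39 ± 0.24 (SE) at week 0, 4.09 ± 0.40 at week 3, 5.38 ± 0.26 at week 7, 5.82 ± 0.28 at week 11 and 6.10 ± 0.33 at week 15, which is 10.5-fold at the first and 68.5-fold at the last of these weeks. By size of its fold change ZBP1 ranked 60 of 14700 genes at week 0 and 11 of 14943 at week 15.

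TREX1, the exonuclease that removes cytosolic DNA, did not pass the test at any week. It ranged at week 15 from 2.67 to 5.89 CPM with wIFN-α (median 3.89) and from 2.58 to 6.48 CPM with placebo (median 3.99). No treated animal lay outside the placebo range at that week. The log2 fold change by edgeR was 0.13 at week 0, 0.26 at week 3, -0.30 at week 7, -0.22 at week 11 and -0.13 at week 15 (95% interval at week 15 -0.50 to 0.24, adjusted p = 0.618). Over the 5 on-treatment weeks its intervals reached from -0.61 to 0.63.

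**Figure D2:**
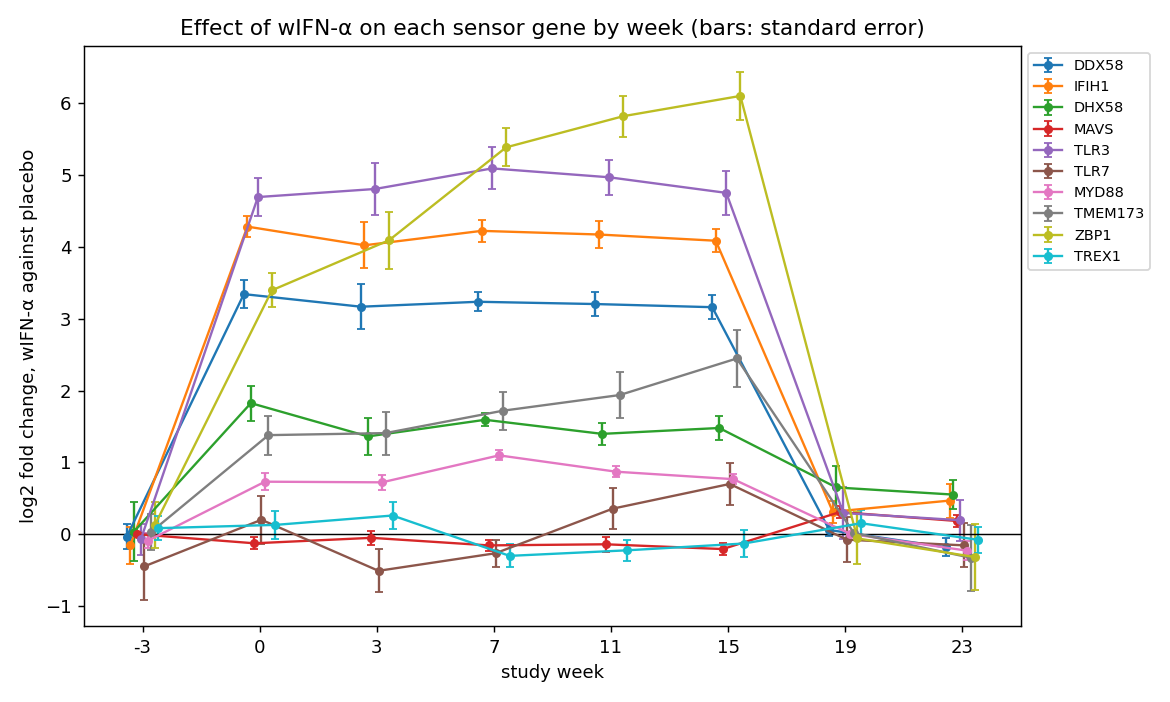
Log2 fold change of wIFN-α against placebo for each sensor at each study week, with standard errors (not drawn where the change was under 0.02). ZBP1 increases from 3.39 at week 0 to 6.10 at week 15 and TMEM173 from 1.38 to 2.45, while over these 5 weeks DDX58 stays between 3.16 and 3.34, IFIH1 between 4.02 and 4.28, TLR3 between 4.69 and 5.09 and DHX58 between 1.36 and 1.82. At weeks 19 and 23 DHX58 lies at 0.65 and 0.55, and no sensor was called there or at week -3.

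To ask whether the response depended on dose, the effect at week 15 (high dose) was set against the mean effect at weeks 0 and 3 (low dose) in 1 fit of all weeks. Every treated animal had the low dose first, so that dose and time on treatment cannot be told apart. ZBP1 alone passed, where 2.26% of all genes did (1.93% with a larger effect at the high dose). Its effect was larger at the high dose by 2.36 on the log2 scale (95% interval 1.57 to 3.16, adjusted p = 3.57e-05, edgeR), a factor of 5.15. In the 8 animals sampled at both weeks, ZBP1 was higher at week 15 than at week 0 in 8 of 8, by 1.63 to 2.88 on the scale of log2(CPM + 1), while placebo ZBP1 was higher in 1 of 9 animals. With each single low-dose week in place of the mean, and without F1013 at week 3, ZBP1 passed as well.

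TMEM173 had the next largest dose difference, 1.06 (95% interval 0.25 to 1.86), and did not pass (adjusted p = 0.169, edgeR). It passed once animals entered the fit as a replicate block, with 1.22 (adjusted p = 0.014) in limma-voom with a random block and 1.01 (adjusted p = 0.0243) in edgeR with a fixed block. It was higher at week 15 than at week 0 in 6 of 8 animals. F1020 moved most, and M1012 went the other way, from 3.56 CPM at week 0 to 1.72 CPM at week 15. TLR7 showed a difference of 0.86 (95% interval 0.02 to 1.71, adjusted p = 0.339), which passed only with the muscle biopsies left out (1.00, adjusted p = 0.0496).

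For the RIG-I-like receptors the difference between the doses did not pass. It was -0.09 for DDX58 (95% interval -0.56 to 0.38), -0.06 for IFIH1 (-0.60 to 0.47) and -0.11 for DHX58 (-0.77 to 0.55), with adjusted p of 0.935, 0.966 and 0.945 by edgeR. The estimate was 0.04 for MYD88 (-0.20 to 0.28), -0.11 for MAVS (-0.36 to 0.14), -0.32 for TREX1 (-0.75 to 0.11) and 0.00 for TLR3. The intervals given include 0 and are widest for DHX58, and none is given for TLR3, whose estimate was under 0.02.

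Other pairs of weeks were compared in the same fit. From the first to the repeated low dose (week 3 against week 0), 0 of 10 sensors passed by edgeR, where 2.4% of all genes did, and limma-voom passed 0. An unadjusted p under 0.05 was reached by 0 sensors and by 2572 of all 16232 genes. From low to high dose (week 7 against week 3), 0 passed, where 1.15% of all genes did, and limma-voom passed 0. Here 1693 of all 16232 genes and 3 sensors had an unadjusted p under 0.05. Of these 3, ZBP1 had a difference of 1.29 (95% interval 0.43 to 2.14, adjusted p = 0.148), and it passed once animals entered as a replicate block (1.79, adjusted p = 0.0211, random block; 1.35, adjusted p = 0.0328, fixed block). From week 7 to week 15 at the high dose, 0 passed, where 0.0246% of all genes did, and limma-voom passed 0. In this comparison 860 of all 16232 genes and 1 sensor had an unadjusted p under 0.05. Within the 8 animals sampled at both of these weeks, ZBP1 was higher at week 15 in 8 and MYD88 lower in 8.

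**Figure D3:**
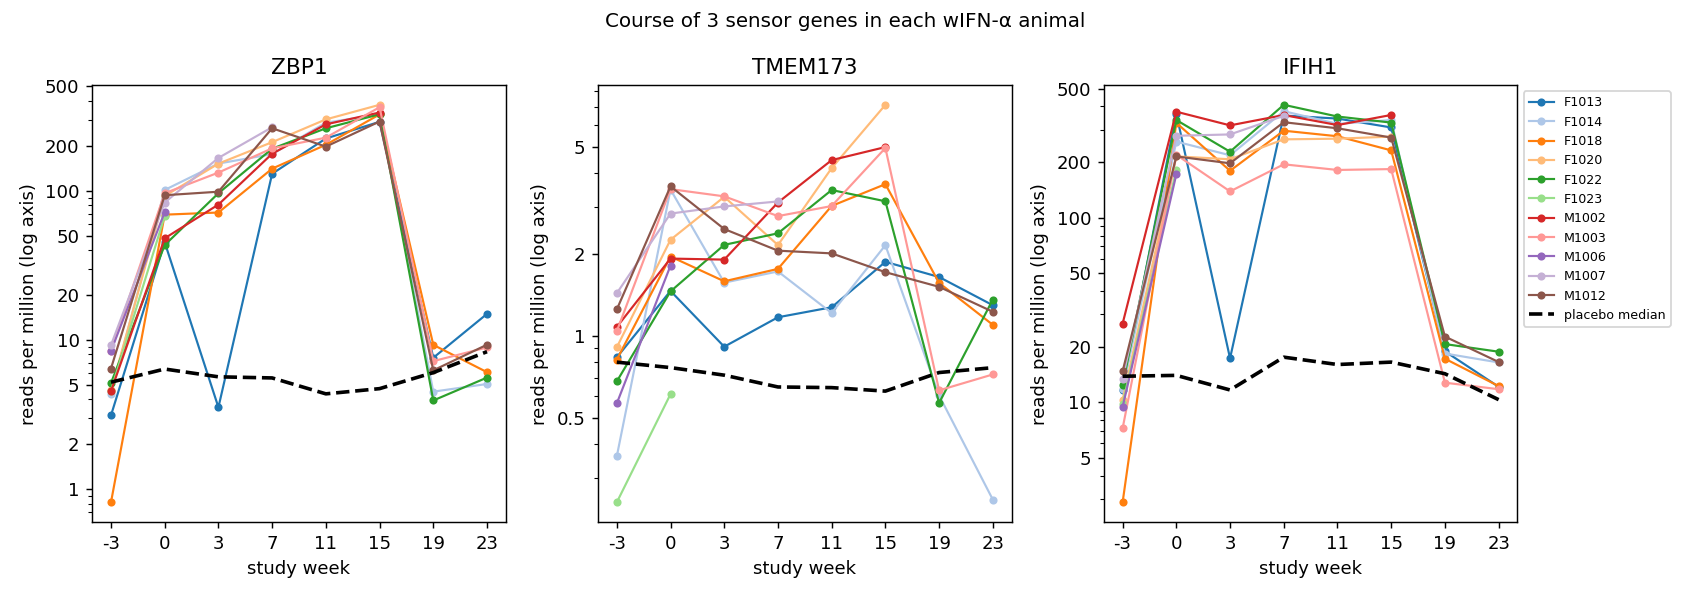
Level of ZBP1, TMEM173 and IFIH1 in each wIFN-α animal (colours) in CPM (log axis) by study week, with the placebo median as a dashed line. ZBP1 lies between 43.3 and 101 CPM at week 0 and between 289.5 and 376 CPM at week 15, and the TMEM173 courses spread. IFIH1 is lower at week 3 than at week 0 in 8 of 9 animals, with F1013 lowest at 17.3 CPM. It is higher at week 7 than at week 3 in 9 of 9. In placebo animals IFIH1 was higher at week 3 than at week 0 in 3 of 12, and higher at week 7 than at week 3 in 12 of 12. Neither change of the IFIH1 effect passed (-0.26, adjusted p = 0.735, and 0.19, adjusted p = 0.9, edgeR).

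After treatment ended, ZBP1, IFIH1 and TLR3 overlapped the placebo range. At week 19, ZBP1 ranged from 3.94 to 9.28 CPM in the 6 treated animals (median 6.74), while the 5 placebo animals had 3.42, 3.66, 6.05, 6.35 and 14.0 CPM. IFIH1 ranged from 12.8 to 22.7 CPM (median 18.7) with placebo values of 12.4, 12.5, 14.3, 15.8 and 19.2 CPM. TLR3 ranged from 2.47 to 7.99 CPM (median 5.19) with placebo values of 2.43, 2.58, 2.97, 5.62 and 8.07 CPM. DHX58 lay above all placebo animals in 4 of 6 treated animals at week 19 (log2 fold change 0.65, 95% interval 0.08 to 1.23, adjusted p = 0.392, edgeR) and in 3 of 6 at week 23 (0.55, 0.16 to 0.94, adjusted p = 0.265, edgeR), and was called at neither week.

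The change of effect from week 15 to week 19 passed for 7 of the 10 sensors, where 14.8% of all genes did, and 6 of these had a lower effect at week 19, where 10.2% of all genes did. By edgeR it was -6.16 for ZBP1, -4.46 for TLR3, -3.77 for IFIH1, -3.10 for DDX58, -2.43 for TMEM173 and -0.77 for MYD88, with adjusted p between 6.74e-17 and 0.000667. DHX58 fell in all 6 animals sampled at both weeks, but it also fell in all 5 such placebo animals, and its change of effect, -0.83 (95% interval -1.72 to 0.05), did not pass (adjusted p = 0.227). TLR7 (-0.78, 95% interval -1.92 to 0.36) and TREX1 (0.28, -0.30 to 0.86) did not pass.

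MAVS moved the other way. Its effect was higher at week 19 than at week 15 by 0.51 (95% interval 0.17 to 0.85, adjusted p = 0.0308, edgeR), where 4.63% of all genes had a higher effect. At week 19 MAVS ranged from 57.8 to 75.2 CPM in treated animals (median 67.0), and the placebo values were 49.2, 49.6, 52.6, 57.5 and 59.6 CPM, so that 5 of 6 treated animals lay above all placebo animals. From week 15 to week 19 it increased in 6 of 6 treated animals and in 2 of 5 placebo animals. The 6 treated animals with both weeks gained 0.13 to 0.45 on the scale of log2(CPM + 1).

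**Figure D4:**
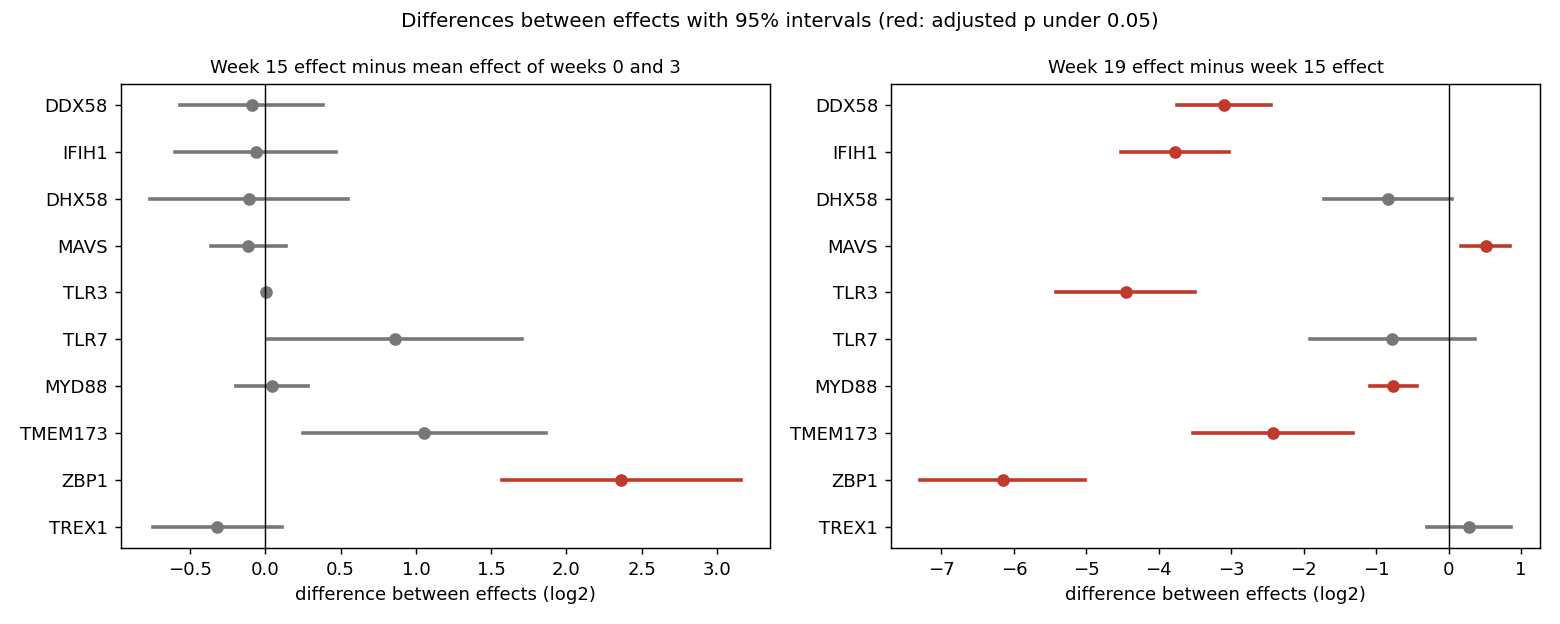
Difference between effects for each sensor with its 95% interval on the log2 scale, for the dose comparison (left) and for the end of treatment (right), red where the adjusted p was under 0.05. ZBP1 alone is red on the left at 2.36, and on the right 6 genes lie between -6.16 and -0.77 and MAVS at 0.51. No interval is drawn for the dose difference of TLR3, which was under 0.02.

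Before treatment and off treatment, 0 of 10 sensors were called in the single-week comparisons by edgeR, where 0.0% of all genes were called at each of weeks -3, 19 and 23. An unadjusted p under 0.05 was reached by 0 sensors at week -3, 2 at week 19 and 2 at week 23. Among all genes tested, 136 of 14963, 1859 of 14715 and 2416 of 14956 reached it at these weeks. DESeq2 and limma-voom called 0 of the 10 at these weeks. With both off-treatment weeks combined, 7.43% of all genes passed and none of the sensors did. An unadjusted p under 0.05 was reached there by 3 sensors and by 3896 of all 16232 genes. The closest were MAVS at 0.26 (95% interval 0.08 to 0.43, adjusted p = 0.0557) and DHX58 at 0.61 (0.15 to 1.07, adjusted p = 0.0877). MAVS passed in limma-voom (0.26, adjusted p = 0.0478), with M1004 included (0.26, adjusted p = 0.0455) and without the muscle biopsies (0.25, adjusted p = 0.0109), where DHX58 passed too (0.60, adjusted p = 0.0155).

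In placebo animals, 3 sensors passed between week -3 and week 23 in the fit of all weeks, where 37.1% of all genes did (17.2% higher and 20.0% lower at week 23). TREX1 was higher at week 23 by 0.70 (adjusted p = 0.000568) and in 9 of 9 animals sampled at both weeks. ZBP1 was higher by 1.04 (adjusted p = 0.00488, edgeR) in 6 of 9 animals, and in limma-voom it did not pass (0.91, adjusted p = 0.0625). DDX58 did not pass by edgeR (0.36, 95% interval -0.002 to 0.72, adjusted p = 0.115), but it passed in limma-voom (0.40, adjusted p = 0.0385) and with the animal as a random (0.42, adjusted p = 0.00999) or fixed (0.41, adjusted p = 0.0212) replicate block. MAVS was lower at week 23, with a log2 difference of -0.36 (adjusted p = 0.00216, edgeR), and fell in 9 of 9 animals. Week -3 holds placebo biopsy F1016, which nearly lacked hepatocyte genes, and without the muscle biopsies the same 3 passed (MAVS at -0.27, TREX1 at 0.69 and ZBP1 at 0.94).

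Placebo animal M1008 stood apart in several sensors late in the study. It had the highest placebo level of TMEM173 at 7 of 8 weeks and of ZBP1 and TLR7 at 5 of 8 weeks. At week 23 its levels were 26.8 CPM of ZBP1, 3.31 CPM of TMEM173 and 15.1 CPM of TLR7, against medians of 7.31, 0.685 and 4.73 CPM in the other 8 placebo animals. Its 2 runs of week 15, which differed as much as different animals, held 1.80 and 1.95 CPM of TMEM173 and 11.1 and 13.7 CPM of TLR7 (before TMM scaling). On the same scale they held 68.6 and 94.6 CPM of DDX58 and 71.0 and 98.1 CPM of MAVS, while TREX1 went the other way with 3.19 and 2.66 CPM. Without M1008 at week 15 the log2 fold change was 2.79 for TMEM173 and 6.37 for ZBP1, and both were called.

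Levels were compared between genes after division by the transcript length implied by the deposited RPKM values. In placebo biopsies of weeks 0 to 15 (n = 55), DHX58 had the highest median level per kilobase, 77.2 CPM per kilobase, followed by MAVS at 12.3 and DDX58 at 10.99, whose ranges overlap. MYD88 followed at 5.11 and IFIH1 at 3.49. The lower ranks were close to each other, with 1.60 for TREX1, 1.17 for TLR3, 1.04 for ZBP1 and 0.953 for TLR7, and TMEM173 lay lowest at 0.178. In the 45 wIFN-α biopsies of the same weeks the order was DHX58 (218), DDX58 (96.6), IFIH1 (61.3), TLR3 (36.0) and ZBP1 (33.5), followed by MAVS (12.0), which moved from second to sixth place. TMEM173 remained lowest of the 10 at 0.588.

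**Figure D5:**
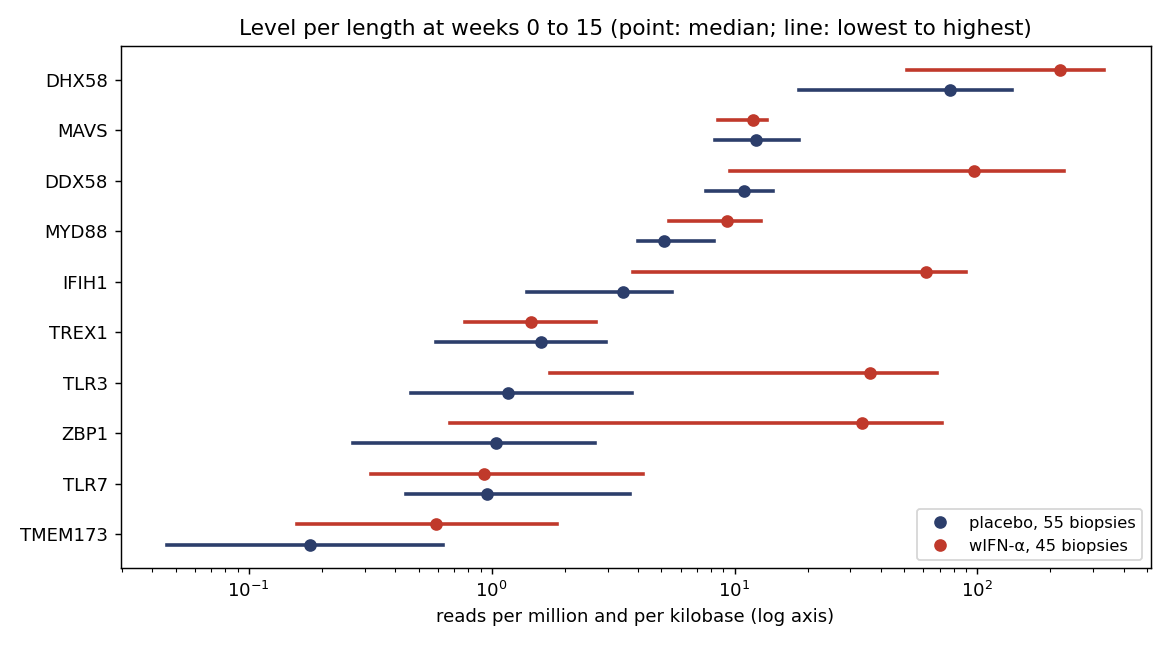
Median (point) and lowest to highest value (line) of each sensor's level in CPM per kilobase (log axis), in placebo and wIFN-α biopsies of weeks 0 to 15. With wIFN-α, DDX58, IFIH1, TLR3 and ZBP1 pass MAVS, whose median is 12.3 with placebo and 12.0 with wIFN-α, and the long red lines to the left end in F1013 at week 3.

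The wIFN-α animals also varied among themselves. Over weeks 0 to 15 the coefficient of variation in treated biopsies was 43.1% for DDX58, 28.9% for IFIH1 and 36.3% for TLR3, and 56.0% for ZBP1, whose level differed between weeks. These values include F1013 at week 3. In placebo biopsies of the same weeks it was 14.3% for DDX58, 28.1% for IFIH1, 49.6% for TLR3 and 49.0% for ZBP1. M1002 had the highest DDX58 level at each of the 5 on-treatment weeks, from 873 to 1082 CPM. The lowest DDX58 level belonged to F1020 at weeks 0, 7, 11 and 15 and to F1013 at week 3. Off treatment the 12 treated biopsies of weeks 19 and 23 had 51.7 to 59.2 CPM of DDX58 (coefficient of variation 4.78%). The 14 placebo biopsies of these weeks had 45.7 to 89.8 CPM (18.5%).

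Lanes were compared as a batch. Each biopsy was assigned to the lane of its deepest run. In 38 of the 164 biopsies, runs from several lanes were summed, so that the lanes are not fully separated here. In each of the 7 lanes so assigned, wIFN-α and placebo biopsies of weeks 0 to 15 differed in the same direction for the 7 called genes. On the scale of log2(CPM + 1) the difference was 2.44 to 3.36 for DDX58, 3.65 to 4.43 for IFIH1, 0.80 to 1.99 for DHX58, 4.19 to 5.15 for TLR3, 0.61 to 1.09 for MYD88, 0.55 to 1.17 for TMEM173 and 3.52 to 5.74 for ZBP1. TLR7 and TREX1 took both signs, with -0.13 to 0.31 and -0.52 to 0.20, and so did MAVS with -0.21 to 0.03.

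Other genes of the sensing pathways were followed in 7 lists with 111 genes, of which 96 were listed in the tables. At week 15, 94 of them were tested, and 36 were called higher and 5 lower, against 12.9% and 9.81% of all genes tested. At week 0 the counts were 36 and 4 of 93. Off treatment, at weeks 19 and 23, 0 of 93 were called by edgeR at each week. With both weeks combined, 4 of 95 passed, where 7.43% of all genes did. These were IL1B at -0.76 and TLR4 at -0.34 (adjusted p = 0.00773 and 0.0475, edgeR), and DDX3X at 0.56 and TRIM32 at 0.35 (adjusted p = 0.00905 and 0.0387, edgeR), named after their values were seen.

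Upstream of TMEM173, cGAS (listed as MB21D1) had 4.02 ± 0.66 CPM with wIFN-α and 0.150 ± 0.083 CPM with placebo at week 15 (SD, n = 8 and 9). Its log2 fold change by edgeR was 3.29 at week 0 and 4.71 at week 15 (adjusted p = 7.06e-10). At weeks -3, 19 and 23 cGAS did not pass the filter on low counts and was not tested. It passed at the on-treatment weeks, where the wIFN-α group was high, so that its p-values there depend on that group. It was 1 of 5 of the 14 tested genes in the list of other cytosolic DNA sensors that rose, with none that fell. MNDA, of the interferon-inducible DNA-binding family, was at 2.24, and the median of the list was 0.05. Beside the toll-like receptors above, 2 of 7 tested receptors rose at week 15 and 1 fell. Among them were TLR8, an endosomal receptor for single-stranded RNA, at 1.34, and TLR10 at -0.78 (adjusted p = 0.000854 and 8.62e-05, edgeR). TLR1, named after its values were seen, was called lower at weeks 0, 3, 7 and 11 (log2 fold change -1.74, -1.08, -1.365 and -0.82). At week 15 TLR1 was not called (-0.335, adjusted p = 0.464, edgeR). The adaptor of TLR3, TICAM1, rose by 0.92 and UNC93B1, which brings the nucleic acid receptors to the endosome, by 1.72, in a list of adaptors and chaperones with 3 of 14 higher and a median of 0.15.

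Below the adaptors, 11 of 20 tested genes of signalling to the interferon regulatory factors and NF-kB rose at week 15 and 1 fell, with a list median of 0.61. IRF7, the transcription factor that drives interferon-α genes, had 441 ± 84.6 CPM against 26.0 ± 9.64 CPM (SD) and a log2 fold change of 4.08 (adjusted p = 4.70e-11, edgeR), while TRAF2, an adaptor of the tumour necrosis factor receptors, was at 0.59. Among regulators of the RIG-I-like receptors and TMEM173, 8 of 22 rose and 1 fell, with a median of 0.01. IFIT1, which binds uncapped RNA, was at 5.33, and RNF125, an E3 ligase that marks DDX58 for degradation, at -0.68. Of 12 nucleases and editing enzymes, 4 rose and 1 fell (median 0.09), with the RNA-editing enzyme ADAR at 2.28 and the secreted nuclease DNASE1 at -0.59. DNASE1 lay near the 1.5-fold limit and lost its call in several alternatives.

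Products of sensing were mostly not covered, since 6 of 19 genes in the list of interferons and cytokines were listed and 5 were tested at week 15. Of these 3 rose and 1 fell (median 0.75). CXCL10, the chemokine that draws activated T cells, had 3255 ± 891 CPM against 50.6 ± 30.7 CPM (SD) and a log2 fold change of 6.001 (adjusted p = 1.01e-09, edgeR), and IL12B was at -0.75. In the dose comparison, 3 of 95 pathway genes passed by edgeR, where 2.26% of all genes did, and all had a larger effect at the high dose. These were MB21D1 at 1.38 (adjusted p = 0.0371), TRIM25, the ligase that activates DDX58, at 0.73 (adjusted p = 0.000337) and IFNG at 3.51 ± 0.85 (SE, adjusted p = 0.00663), and TRIM25 and IFNG were singled out after their values were seen. IFNG did not pass the filter at week 15, where it had 0.903 ± 1.35 CPM with wIFN-α and 0.0706 ± 0.105 CPM with placebo (SD). MB21D1 was low with placebo as well, as given above. Both genes may have entered the fit of all weeks only through wIFN-α biopsies in which they were high. Their p-values for the dose difference may therefore depend on that group. At the end of treatment, 36 of 95 had a lower and 2 a higher effect at week 19 than at week 15, where 10.2% and 4.63% of all genes did.

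Immune cell markers were also compared at week 15, where 12.9% of all genes tested were called higher and 9.81% lower. Of 9 tested T cell genes 7 were called higher, and the summed level of the list (10 genes) was 121 to 256 CPM with wIFN-α and 48.9 to 95.9 CPM with placebo. Of 8 tested genes of NK and cytotoxic cells 7 were called higher, with sums of 36.2 to 77.2 CPM and 16.7 to 28.1 CPM. At week 0 the counts were 1 of 9 and 3 of 8, where 10.3% of all genes tested were called higher. Of 7 B and plasma cell genes 3 were higher at week 15 (sums of 18.2 to 91.3 CPM and 10.1 to 25.6 CPM), and of 10 macrophage genes 4 were higher and 1 lower (549.6 to 1259 CPM and 376 to 669.7 CPM). The plasmacytoid dendritic cell list had sums of 36.0 to 45.8 CPM and 34.7 to 42.5 CPM, with 2 of 5 tested genes higher. None of the genes listed was at 0 in all biopsies of that week. The part of these cells in the levels of ZBP1, TMEM173 and TLR7 was not tested.

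The hepatocyte list had sums of 58780 to 112600 CPM with wIFN-α and 62520 to 90490 CPM with placebo at week 15. Of its 7 genes 1 was called higher, where 12.9% of all genes tested were. In placebo biopsies alone (n = 81), the genes most alike in pattern by Pearson's r of log2(CPM + 1) were UNC13D (0.91), ITGB2 (0.91) and IRF8 (0.91) for ZBP1 and INPP5D (0.85), CD300C (0.84) and STAT6 (0.84) for TMEM173. For DHX58 they were CYP2C8 (0.89), GSTA1 (0.87) and AGMAT (0.86), for DDX58 SP100 (0.84), CDK9 (0.84) and PLEKHA5 (0.83), and for IFIH1 SLC31A1 (0.80), PPM1H (0.77) and MGAM (0.76). For MAVS they were CSNK2A1, EIF4EBP2 and RPRD2 (0.79 to 0.80), for TLR7 KCNJ2, DYSF and PACS1 (0.84 to 0.86), for MYD88 PTPN18, GGA2 and TTC22 (0.68 to 0.72), for TREX1 MOSPD3, GPAT2 and TARBP1 (0.69 to 0.71), and for TLR3 EIF2C3, DIRAS2 and C2orf43 (0.54 to 0.58). These correlations describe 81 biopsies that share animals and lanes and include F1016 at week -3 and F1021 at week 3, which held muscle reads. Without these 2 (n = 79), r with the first gene named was 0.82 for DHX58, 0.78 for TLR7, 0.735 for DDX58, 0.73 for IFIH1, 0.74 for MAVS, 0.90 for ZBP1 and 0.86 for TMEM173.

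Among the sensors themselves, the 45 pairs had a median r of -0.01 over the 81 placebo biopsies. TMEM173 and ZBP1 had the highest value (0.68), followed by IFIH1 and DHX58 (0.58), and DDX58 and TLR7 the lowest (-0.43). Without the 2 muscle biopsies the median was 0.01, the pair of DDX58 and TLR7 had -0.08, that of IFIH1 and DHX58 had 0.42 and that of TMEM173 and ZBP1 had 0.73, and the lowest value was that of IFIH1 and ZBP1 (-0.40). Over all 149 biopsies, which hold both groups and all weeks, the most alike genes were IFIT1 (0.98), IFIT3 (0.97) and IFIH1 (0.97) for TLR3, PML (0.98) for DDX58, DIRC3 (0.99) and DTX3L (0.98) for IFIH1, BATF2 (0.97) for ZBP1 and BCL2L14 (0.90) for TMEM173. For MYD88 the first was TMEM229B (0.90), for DHX58 PIK3AP1 (0.88), for MAVS CSNK2A1 (0.80), for TLR7 SLC38A1 (0.78) and for TREX1 GPAT2 (0.64).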

How the data were processed

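Poly(A) RNA libraries were sequenced in pairs, and the authors mapped the read pairs with Bowtie2 to a woodchuck transcriptome assembly, preferring concordant unique hits, and obtained counts through SAMtools. The deposited expected counts per gene are not normalized (118 of 3368023 entries were fractions). Genes not listed in a run were taken as 0, and the virus entry was left out. The authors also deposited RPKM values, used here only for transcript lengths. Contigs carry human-style symbols, so that reads of paralogs or overlapping genes may be shared, and the kit does not mark strand.

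Summing the 203 runs by animal and week gave 164 biopsies, of which 149 were used, with counts rounded. Counts were tested with edgeR 4.0.16 in R 4.3.3 (TMM, filterByExpr, quasi-likelihood, Benjamini-Hochberg over all genes tested), with 1 fit per week, called at adjusted p under 0.05 and fold change above 1.5, and with 1 fit of all weeks for differences between effects (adjusted p under 0.05). Standard errors were derived from each log2 fold change and its F statistic (none for changes under 0.02), and 95% intervals use the normal quantile. CPM are scaled by TMM over the 149 biopsies. Alternatives used DESeq2 1.42.0, limma-voom (limma 3.58.1), RLE scaling, no filter, the deepest run, sex, M1004, 2-fold or no fold threshold, muscle biopsies (over 5% muscle reads) or single animals left out, and the animal as a replicate block. Over 16232 genes, deviations of biopsies of the same animal had a median correlation of 0.31 (450 pairs), against -0.02 for other animals (4409 pairs), and the labels give the animal. On simulated data of week 15 (14943 genes), edgeR recovered 12, 41, 49 and 49 of 50 genes changed 1.5-, 2-, 4- and 8-fold, and called 5 unchanged genes. Recovery at week 15 required an estimate above 1.5-fold, so that this limit itself lowers the count for genes changed 1.5-fold. For the dose difference (16232 genes), tested without a fold limit, edgeR recovered 7, 31, 36 and 45 of 50 and called 8 unchanged genes. The simulated biopsies were drawn independently, without an animal effect, so that the dose figures do not cover the repeated sampling of animals in the data.

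Members and lists were chosen with earlier results of these data known. All 10 members are named, and of each pathway list the called genes with the highest and lowest fold change at week 15 (mean of at least 1 CPM). The likeness rule names 3 genes per member. All members passed the filter, so that no test outside the fits was needed. Sequences were not used here.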

Additional observations from a re-analysis of the deposited data

Results flagged for a closer look

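In groups of 4 to 10 animals, 100 in all, 14 held a value far from the rest of its group, where chance alone gives about 1 in 20 for a single group. The groups are 10 genes in the same biopsies and are not independent, so that the count of 14 was not tested against chance. Of the 14 values, 5 were F1013 at week 3 among the wIFN-α animals, with 45.6 CPM of DDX58, 17.3 of IFIH1, 147 of DHX58, 6.53 of TLR3 and 3.54 of ZBP1. The others were IFIH1 in M1003 at week 11 (181 CPM), MAVS in F1020 at weeks 11 and 15 (40.5 and 44.4 CPM) and in F1013 at week 23 (46.9 CPM), and TLR7 in F1013 at week 19 (10.3 CPM). In placebo animals they were MAVS in M1001 at week 23 (60.0 CPM), TLR7 and TMEM173 in M1008 at week 19 (12.1 and 2.43 CPM) and TREX1 in M1011 at week 19 (4.19 CPM).

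Effects that differed between weeks by the test of the difference itself were the dose difference of ZBP1 (2.36) and the change from week 15 to week 19 of DDX58 (-3.10), IFIH1 (-3.77), MAVS (0.51), TLR3 (-4.46), MYD88 (-0.77), TMEM173 (-2.43) and ZBP1 (-6.16), all on the log2 scale.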

How the results depend on the processing

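The 7 genes called at weeks 0 to 15 were 6 to 8 under every alternative run, with MYD88 lost at weeks 0, 3, 11 and 15 at a 2-fold threshold and TLR7 gained at week 15 in DESeq2, with the deepest run, and without M1008 or M1012. No alternative called a sensor at weeks -3, 19 or 23, and the 7 genes of the withdrawal contrast passed in every alternative. The dose difference passed for 2 genes with the animal as a random or fixed replicate block (ZBP1 and TMEM173) and for 2 without muscle biopsies (ZBP1 and TLR7). The dose step passed for 1 gene, ZBP1, with either replicate block. Off treatment, 1 gene passed with limma-voom and with M1004 included, and 2 without muscle biopsies. Over time in placebo animals, 4 passed with either replicate block (DDX58 added). The blocks changed no other call of a sensor in the contrasts named here. At a 2-fold threshold, 25 of the 41 pathway genes called at week 15 remained. Over all genes, the dose difference passed for 367 genes, and for 986 (random block), 1163 (fixed block) and 624 (no muscle biopsies), while limma-voom passed 40 in place of 389 for the repeated low dose and 28 in place of 187 for the dose step. DESeq2 called 89 and 53 genes and limma-voom 0 and 307 at weeks 19 and 23, where edgeR called 0. No alternative needed a test of members below the filter, since there were none. Of the pathway genes named by the week 15 rule, TICAM1, TLR10, DNASE1, TRAF2, RNF125 and IL12B lost their call at a 2-fold threshold. DNASE1, near the 1.5-fold limit, also lost it with RLE scaling, no filter, the deepest run, M1004 included and single animals of either group left out. TRAF2 lost it in limma-voom, with sex in the fit, and without F1014 or M1011. RNF125 lost it without M1001, and IL12B with the random block.

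Sign changes concerned values that had not passed. For the dose difference they were DDX58 and IFIH1 in limma-voom (0.027 and 0.0593) and with the random block (0.0554 and 0.0387), MYD88 with the fixed block (-0.007), IFIH1, DHX58 and TLR3 with week 3 alone as low dose (0.0643, 0.12 and -0.0549), and TLR3 with the deepest run (-0.0047), M1004 included (-0.0068), no muscle biopsies (-0.0031) and no F1013 at week 3 (-0.0785). TLR7 at week 0 was -0.31 without muscle biopsies. The cause of these changes was not tested. The week 0 run without muscle biopsies, the dose difference without F1013 and the correlations without muscle biopsies were chosen after seeing the data. TMEM173 had few reads, and weeks 19 and 23 few animals.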

Other observations

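Biopsies outside the comparisons gave the following levels. In M1004, a wIFN-α animal, DDX58 was 54.3 CPM at week -3, 434, 347, 573, 516 and 478 CPM at weeks 0, 3, 7, 11 and 15, and 55.5 CPM at week 19. ZBP1 in M1004 was 11.1, 124, 213, 252, 266, 377 and 10.4 CPM at these weeks. Of 8 samples outside the schedule, 4 of them labelled as from animals that died, 3 came from placebo animals, with 55.9 to 63.4 CPM of DDX58 and 4.11 to 9.21 CPM of ZBP1. Of the other 5, M1006 and M1007 had 412 and 386 CPM of DDX58 and 86.1 and 296 CPM of ZBP1. F1023 had 129 CPM of DDX58 and 29.5 CPM of ZBP1. F1020 had 49.7 CPM of DDX58 with 29.6 CPM of ZBP1. M1002, whose label places this sample after the end of treatment, had 69.0 and 10.3 CPM. How long after a dose or after death these samples were taken was not analysed here.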
